A study of Mus musculus with 3 samples.

Results

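The genes described here are 10 that are used to recognise macrophages living in the heart muscle itself: Timd4, Lyve1, Folr2, Cd163, Mrc1, F13a1, Vsig4, Mertk, Cx3cr1 and P2ry12. They were chosen by symbol among the 29994 genes counted, and all 10 were found once. Their RNA was followed in macrophages recognised by other genes: 2665 of 17090 cells passed a gate on 12 macrophage markers (among them Csf1r, Adgre1, C1qa, C1qb, C1qc, Ms4a7, Cd68, Fcgr1, Cd84 and Ctss), none of which is among the 10. The study counted RNA in droplets (10x Genomics) from ventricles of C57B6 mice in 3 groups. Sham mice received vehicle, TAC mice received vehicle, and TAC+ART mice received artesunate, where TAC (transverse aortic constriction) is surgery that narrows the aortic arch and so raises the pressure the left ventricle pumps against, and artesunate is an antimalarial drug derived from artemisinin. Each group is 1 library made from a pool of 3 hearts stored frozen at -80 °C. The sources used here do not give the age or sex of the mice, the dose, the time after surgery, or whether whole cells or nuclei were loaded, so barcodes are called cells throughout.

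With 1 library per group there is no replicate, so no difference below is tested. The intervals are 95% intervals for counting error only, and they do not cover differences between mice, pools or library preparations. Surgery, drug and library cannot be told apart.

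Resident cardiac macrophages settle in the heart early in life and renew themselves in place, with a variable addition from blood monocytes that carry the receptor Ccr2. They take up dying cells and debris, bind hyaluronan and other ligands of the tissue, and can shed some of these receptors from their surface when activated. Timd4, Lyve1 and Folr2 are the genes most often used to mark the longest-lived of them in mice, while Cx3cr1 is also made by monocytes and by macrophages newly formed from them.

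Timd4 and P2ry12 had the largest differences between libraries of the 10, in the same direction, and the 250 bases before the start site of each are therefore shown with those of Vsig4, the other member lower in TAC by 1.5-fold, and of Mertk, the member with the highest TAC level relative to Sham. The sequences are from RefSeq on GRCm38.p6, written 5′ to 3′ on the strand of the gene, and capitals mark a match to TGCTGA (a half-site of MAF factors), CACGTG (the E-box bound by MITF and TFEB) or GAGGAAGT (PU.1) on either strand.
Timd4 (chr11:46810549-46810798, plus strand): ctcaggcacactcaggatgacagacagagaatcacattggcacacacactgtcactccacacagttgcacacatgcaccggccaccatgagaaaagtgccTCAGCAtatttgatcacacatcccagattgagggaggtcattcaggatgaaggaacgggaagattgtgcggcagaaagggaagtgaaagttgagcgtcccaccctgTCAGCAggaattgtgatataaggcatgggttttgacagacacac
P2ry12 (chr3:59262986-59263235, minus strand): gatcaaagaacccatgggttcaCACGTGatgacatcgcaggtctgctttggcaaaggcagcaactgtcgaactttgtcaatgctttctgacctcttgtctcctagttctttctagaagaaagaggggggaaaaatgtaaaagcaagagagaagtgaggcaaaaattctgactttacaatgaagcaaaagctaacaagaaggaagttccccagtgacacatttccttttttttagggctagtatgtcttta
Vsig4 (chrX:96293439-96293688, minus strand): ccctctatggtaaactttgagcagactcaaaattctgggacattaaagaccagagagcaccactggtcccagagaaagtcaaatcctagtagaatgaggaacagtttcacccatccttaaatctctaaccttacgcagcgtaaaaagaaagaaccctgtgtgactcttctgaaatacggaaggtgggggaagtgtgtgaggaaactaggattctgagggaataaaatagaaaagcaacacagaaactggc
Mertk (chr2:128698665-128698914, plus strand): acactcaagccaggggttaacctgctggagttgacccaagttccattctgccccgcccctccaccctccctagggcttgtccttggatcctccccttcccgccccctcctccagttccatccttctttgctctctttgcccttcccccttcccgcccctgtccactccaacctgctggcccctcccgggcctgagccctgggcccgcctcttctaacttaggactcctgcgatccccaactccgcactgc
The Timd4 stretch holds TGCTGA on the other strand, with its first base 150 and 44 bases before the start, and the P2ry12 stretch holds CACGTG 228 bases before the start. No match lies in the Vsig4 and Mertk stretches. The promoter table matched 9 of the 10 genes with 11 promoters, and holds no entry for Lyve1. Counting also the 50 bases after the start, TGCTGA was in 4 of the 11 promoters, from 3 genes (Timd4, Folr2 and Vsig4), and in 19.5% of all 32851 promoters of that length. CACGTG was in 1 (P2ry12) and in 7.15% of all, and GAGGAAGT in 1 (F13a1) and in 3.2% of all. The 3 motifs do not overlap one another in these promoters, and a match is a string of letters and not a bound site.

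On mm10, Timd4 lies at chr11:46810800-46844332, Lyve1 at chr7:110850607-110863239, Folr2 at chr7:101839988-101857194, Cd163 at chr6:124304656-124330527 and Mrc1 at chr2:14229392-14332057. F13a1 lies at chr13:36867178-37050244, Vsig4 at chrX:96247203-96293438, Mertk at chr2:128698956-128802894, Cx3cr1 at chr9:119901616-120069879 and P2ry12 at chr3:59216272-59262871. All 10 are annotated as protein-coding, and the deposited counts are per whole gene. Med12l, annotated on the opposite strand over the same stretch as P2ry12, is counted as a gene of its own. The sources used here do not state how strand was treated, and whether Med12l reads enter the P2ry12 count was not tested. The same holds for F13a1 with Gm49144 and Gm30489, for Folr2 with Gm10602, and for Cx3cr1 with Wdr48. The annotated span of Cx3cr1 also overlaps counted genes on its own strand: Xirp1, with 4 UMIs in Sham macrophages, 91 in TAC and 29 after TAC+ART, and Gorasp1 and Csrnp1. Xirp1 was highest in TAC, like Cx3cr1, and the part of these overlaps in the Cx3cr1 values was not tested. Levels are given in CPM, the UMIs of a gene per 1000000 UMIs of the cells named, and a UMI (unique molecular identifier) stands for 1 captured RNA molecule. Med12l itself had 70.5 CPM in Sham macrophages, 34.9 in TAC and 67.4 after TAC+ART, lowest in TAC like P2ry12.

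The gate kept 300 macrophages in Sham (8.25% of the cells), 1380 in TAC (19.8%) and 985 after TAC+ART (15.2%), with medians of 4465, 4682.5 and 4312 UMIs per cell. The gate is a range of marker UMIs and not a cell type: 146, 294 and 290 cells, inside or outside it, met a looser pair of limits but not a stricter one. The 12 markers themselves had medians over the gated cells of 32.2, 45.2 and 38.8 UMIs per 10000. The libraries held 17710689, 37658150 and 33364667 UMIs before filtering. Medians over the gated cells were 0 UMIs for the dendritic, neutrophil, mast and T or NK marker lists in every library, and the monocyte list had a median of 1.49 UMIs per 10000 in TAC and 0 in the others. Fibroblast markers stood at 9.42, 22.8 and 27.7 UMIs per 10000, and cardiomyocyte markers at 39.3, 53.4 and 55.2, against 98.5 to 133 and 551 to 610 in the fibroblast-like and cardiomyocyte-like cells. The B cell list stood at medians of 10.6, 5.38 and 8.73. The part of this RNA in the ratios below was not tested. The libraries share 67 of 17954 barcodes; 11 gated macrophages carry one, and no shared barcode was gated in more than 1 library.

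In gated macrophages, Timd4 and P2ry12 were lower in TAC than in Sham by more than 2-fold and stood near the Sham level in TAC+ART. Vsig4 was lower in TAC by 1.60-fold, and Mertk and Lyve1 were higher in TAC by 1.60-fold and 1.53-fold. The 10 genes therefore did not differ in 1 direction between TAC and Sham. Of the 10, 2 were higher by 1.5-fold or more, against 11.7% of the 9225 genes with at least 100 UMIs in both libraries together, and 3 were lower, against 10.1%. Between TAC+ART and TAC, 2 of the 10 were higher, against 5.21% of 10200 genes, and 0 were lower, against 5.12%. Between TAC+ART and Sham 0 were higher, against 7.03% of 8089 genes, and 0 were lower, against 6.79%. The median log2 ratio over the 10 was -0.22 for TAC over Sham, 0.44 for TAC+ART over TAC and 0.17 for TAC+ART over Sham, where the medians over all genes tested were -0.002, -0.07 and -0.06. The 3 ratios share their libraries, so a low TAC value lowers the first and raises the second.

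**Figure D1:**
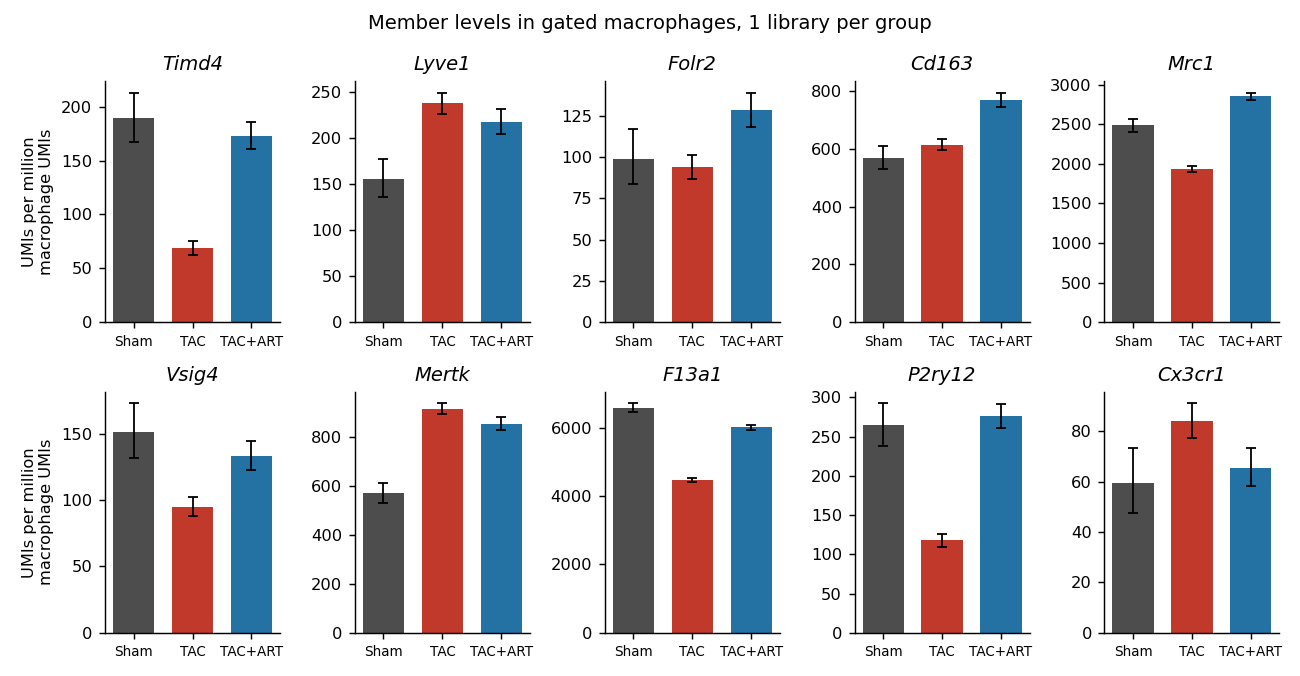
Level of each gene in gated macrophages, in CPM (vertical axes from 0, a scale for each gene), in the Sham, TAC and TAC+ART libraries; whiskers are 95% Poisson intervals for counting error. Timd4, P2ry12, Vsig4, F13a1 and Mrc1 are lowest in TAC, and Mertk, Lyve1 and Cx3cr1 are highest there.

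The first group of members recognises phosphatidylserine on dying cells. Timd4 encodes TIM-4, a receptor that tethers such cells to the macrophage. Its level was 189 CPM in Sham (167 to 213), 68.6 in TAC (62.5 to 75.1) and 173 after TAC+ART (161 to 185), from 271, 466 and 790 UMIs. Sham and TAC+ART overlap within counting error and TAC is far below both. The log2 ratio was -1.46 for TAC over Sham (-1.68 to -1.24), 1.33 for TAC+ART over TAC (1.17 to 1.5) and -0.13 for TAC+ART over Sham (-0.33 to 0.07). Among all genes tested, the first of these is at percentile 1.27 and the second at percentile 99.5. Counted as cells, 41.7% of the Sham macrophages held a Timd4 UMI, 18.6% of those in TAC and 36.9% of those in TAC+ART. Among the cells that held one, the median was 3.46, 2.46 and 3.30 UMIs per 10000, which is near what a single UMI is worth at these depths and so is no separate measure of the level per cell.

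Mertk, a receptor tyrosine kinase that engulfs dying cells through the bridging proteins Gas6 and protein S, went the other way. It had 570 CPM in Sham (531 to 610), 914 in TAC (891 to 937) and 854 after TAC+ART (827 to 881). Both TAC libraries are above Sham, and TAC+ART is closer to TAC than to Sham. Its log2 ratio was 0.68 for TAC over Sham (0.58 to 0.79), -0.10 for TAC+ART over TAC (-0.16 to -0.04) and 0.58 for TAC+ART over Sham (0.47 to 0.69), which is just under 1.5-fold. Gas6, its ligand and a product of the macrophages themselves, was at 283, 255 and 321 CPM in these cells, and Pros1, which encodes protein S, at 211, 175 and 192. Neither differed by 1.5-fold in any comparison.

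The second group are endocytic and scavenger receptors of the cell surface. Lyve1, a receptor for hyaluronan, was at 155 CPM in Sham (135 to 177), 237 in TAC (226 to 249) and 217 after TAC+ART (204 to 231). Like Mertk it was lowest in Sham, with log2 ratios of 0.61 for TAC over Sham (0.41 to 0.82) and -0.13 for TAC+ART over TAC (-0.24 to -0.01). Timd4 and Lyve1, often used side by side as marks of the same cells, thus stood in opposite order in Sham and TAC. Folr2, which encodes folate receptor beta, was at 99.1 in Sham (83.5 to 117), 94.1 in TAC (86.9 to 102) and 128 after TAC+ART (118 to 139). Its Sham and TAC levels overlap within counting error. Cd163, the scavenger receptor for haemoglobin bound to haptoglobin, was at 570 in Sham (531 to 610), 615 in TAC (596 to 633) and 770 after TAC+ART (745 to 796). With 816 UMIs in Sham it happened to have as many as Mertk. TAC+ART is the highest of the 3 libraries for both Folr2 and Cd163, with log2 ratios over TAC of 0.45 (0.29 to 0.61) and 0.33 (0.26 to 0.39), under 1.5-fold.

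Mrc1, the mannose receptor CD206, was at 2490 CPM in Sham (2409 to 2574), 1937 in TAC (1904 to 1970) and 2853 after TAC+ART (2804 to 2903). TAC is lowest, and the ratio of TAC+ART over TAC, 1.47-fold, is just inside the 1.5-fold limit. Vsig4 encodes CRIg, a receptor for the complement fragments C3b and iC3b. It had 152 CPM in Sham (132 to 173), 94.9 in TAC (87.8 to 103) and 133 after TAC+ART (123 to 144). TAC is again lowest, with log2 ratios of -0.68 for TAC over Sham (-0.90 to -0.45) and 0.49 for TAC+ART over TAC (0.33 to 0.65). C3 RNA, the source of the ligand of CRIg, was at 53.8, 158 and 104 CPM in the same macrophages, highest in TAC. It stood in the same order and at similar levels in cardiomyocyte-like cells, at 32.2, 135 and 72.3, and was highest in fibroblast-like cells, at 170, 525 and 297, so the macrophage value is not shown to be above background.

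F13a1 encodes the A subunit of coagulation factor XIII, a transglutaminase that crosslinks fibrin, and it had the most UMIs of the 10 in every library. Its level was 6578 CPM in Sham (6446 to 6713), 4465 in TAC (4415 to 4516) and 6014 after TAC+ART (5943 to 6086). TAC is lowest and the log2 ratio of TAC over Sham was -0.56 (-0.59 to -0.53), just under 1.5-fold. The ratio of TAC+ART over TAC was 0.43 (0.41 to 0.45), and TAC+ART remained below Sham, with a log2 ratio of -0.13 (-0.16 to -0.10).

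The last group are receptors coupled to G proteins. P2ry12, a receptor for ADP known from microglia and platelets, was at 265 CPM in Sham (239 to 293), 118 in TAC (110 to 126) and 276 after TAC+ART (261 to 292). As for Timd4, TAC alone is low, and Sham and TAC+ART overlap. Its log2 ratio was -1.17 for TAC over Sham (-1.35 to -0.99), 1.23 for TAC+ART over TAC (1.10 to 1.36) and 0.06 for TAC+ART over Sham (-0.11 to 0.23). Cx3cr1, the receptor for the membrane-bound chemokine fractalkine, was at 59.3 in Sham (47.4 to 73.4), 83.9 in TAC (77.2 to 91.1) and 65.4 after TAC+ART (58.2 to 73.3). It was highest in TAC, with log2 ratios of 0.49 (0.17 to 0.85) and -0.36 (-0.57 to -0.15), both under 1.5-fold, and the Sham value rests on 85 UMIs. Within the macrophage cluster with the most Ccr2 RNA (cluster 7) the order of Cx3cr1 was reversed, with ratios of -0.85 and 0.65, and outside that cluster both intervals include 0, at 0.22 (-0.20 to 0.67) and -0.24 (-0.54 to 0.05).

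**Figure D2:**
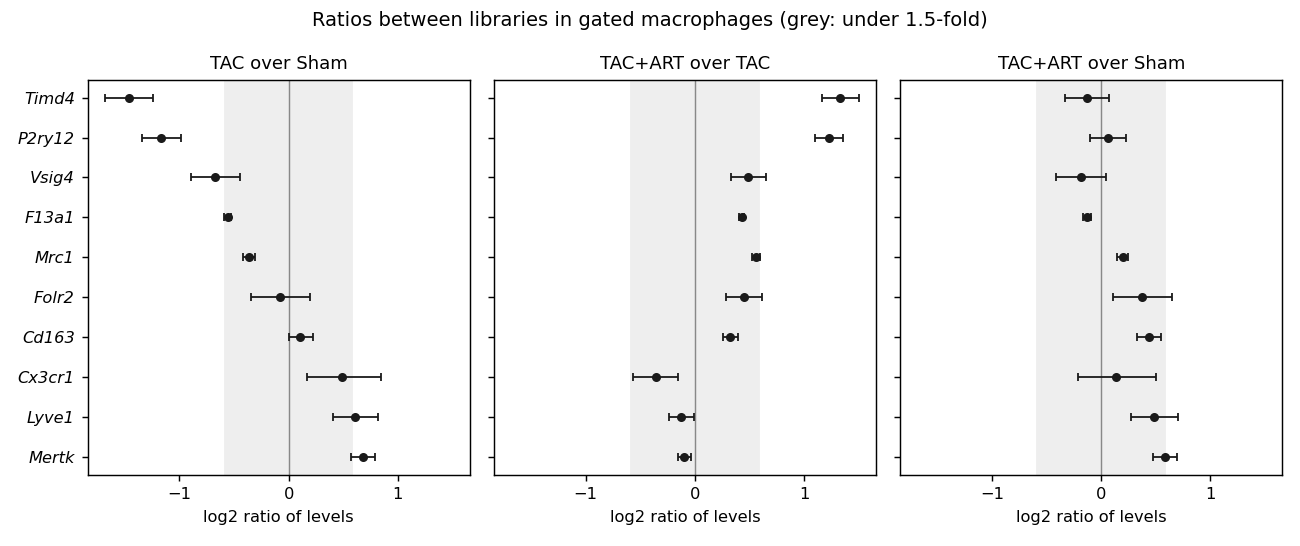
Log2 ratio of each gene between libraries in gated macrophages, with 95% intervals for counting error; the grey band holds ratios under 1.5-fold, and the genes are ordered by TAC over Sham. Timd4 (-1.46) and P2ry12 (-1.17) lie farthest below the band for TAC over Sham and farthest above it for TAC+ART over TAC (1.33 and 1.23), and no gene lies outside it for TAC+ART over Sham.

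Shares of cells with a UMI were also computed at an equal depth of 1000 UMIs per cell, as the share expected when each cell is thinned to that depth, and set beside cardiomyocyte-like cells, which are not a known source of these transcripts and so serve as the background. No gated macrophage was below that depth. Timd4 was seen in 15.1% of Sham macrophages (11.3 to 19.7), 5.17% in TAC (4.06 to 6.47) and 13.1% after TAC+ART (11.1 to 15.4), and in 0.23%, 0.21% and 0.42% of the cardiomyocyte-like cells. P2ry12 was seen in 20.8%, 9.60% and 20.7% of the macrophages, and in 1.15%, 1.19% and 0.56% of the cardiomyocyte-like cells. For both genes TAC is the lowest library at equal depth too.

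Mertk was seen in 39.0%, 52.8% and 52.3% of the thinned macrophages and Lyve1 in 12.04%, 16.7% and 16.3%. In cardiomyocyte-like cells the share was at most 1.67% for Mertk and 3.18% for Lyve1, the highest being in TAC. The 2 members found in most macrophages also had the highest background: F13a1 was seen in 88.0%, 80.5% and 86.5% of macrophages and in 4.21%, 6.95% and 6.86% of cardiomyocyte-like cells, and Mrc1 in 82.5%, 72.7% and 82.4% against 1.68%, 5.54% and 5.69%. Cardiomyocyte-like cells had median depths of 7487, 5119 and 5966 UMIs before thinning, above those of the macrophages. Cx3cr1 was seen in 6.26%, 7.57% and 5.83% of macrophages, against 0.78%, 1.96% and 0.76%.

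**Figure D3:**
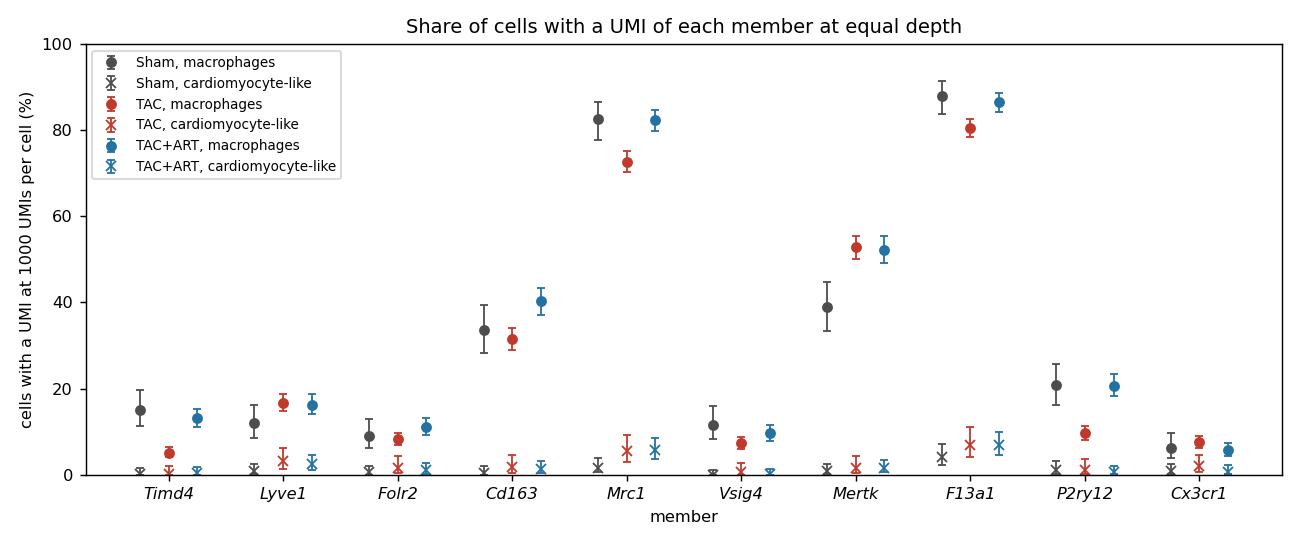
Share of cells (percent) expected to hold a UMI of each gene at 1000 UMIs per cell, for gated macrophages (circles) and cardiomyocyte-like cells (crosses) of each library; whiskers are 95% binomial intervals. The macrophage shares lie above the cardiomyocyte-like ones for all 10 genes in all 3 libraries, and Timd4 and P2ry12 are lowest in TAC.

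Of the gated macrophages, all 300 in Sham, 1364 of 1380 in TAC and 979 of 985 after TAC+ART lay in 4 clusters made without the 10 genes, and the libraries filled these unequally. The few gated cells in other clusters are kept in the ratios outside cluster 7. Cluster 7 held 10.7% of the gated macrophages in Sham, 42.1% in TAC and 15.8% after TAC+ART. It had the most Ccr2 RNA of the 4, 280 CPM against 16.5 to 47.7, and the most Cd74, the chain that guides MHC class II loading. Cluster 5 held 72.3% of the gated macrophages in Sham and 80.5% after TAC+ART, but 0.80% in TAC. Cluster 9 held 54.9% in TAC and at most 1.33% in the others, so it may be that library rather than a kind of macrophage. Cluster 20, whose cells had the highest median depth of the 4 (6414 UMIs), held 15.7% in Sham and at most 2.03% in the others. In clusters 5 and 20 all 12 macrophage markers were raised, yet Bank1, a gene of the B cell list, was among their 10 leading genes and none of the 12 was, so these clusters are given by number only.

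Cluster 7 was low in most of the 10 genes. In TAC, where it is largest, Timd4 was at 14.1 CPM in cluster 7 and 102 in cluster 9, Vsig4 at 20.9 and 141, Lyve1 at 72.5 and 340, and F13a1 at 2040 and 5988. Mertk differed less between them, 773 against 1018, and Cx3cr1 was the one member higher in cluster 7, at 140 against 50.3. The same order held in Sham and TAC+ART between clusters 7 and 5 for Timd4, Lyve1, Folr2, Cd163, Mrc1, F13a1, Vsig4 and Mertk, and Cx3cr1 was again higher in cluster 7. P2ry12 was at 295 in cluster 7 and 294 in cluster 5 in Sham, and at 162 and 300 after TAC+ART. Mrc1 was at 1300 to 1482 CPM in cluster 7 and 2326 to 3082 in the larger clusters of the libraries, 9 in TAC and 5 in the others.

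Because cluster 7 takes a larger share of the TAC library, the ratios were recomputed without it, a choice made after seeing the data. The cells left were mostly of cluster 9 in TAC (757 of 799). They were mostly of cluster 5 in Sham (217 of 268) and TAC+ART (793 of 829). The ratios with TAC therefore mostly set cluster 9 against cluster 5, and do not compare the same cluster. Among the remaining cells Timd4 had 199 CPM in Sham, 100 in TAC and 192 after TAC+ART, and P2ry12 had 262, 142 and 293. Both stayed lower in TAC by more than 1.5-fold, with log2 ratios of -1.0 (-1.22 to -0.77) and -0.89 (-1.08 to -0.69). Both also stayed higher in TAC+ART than in TAC, by 0.94 (0.77 to 1.12) and 1.04 (0.90 to 1.19). For Vsig4 the ratio of TAC over Sham moved from -0.68 to -0.25 (-0.47 to -0.01), and for F13a1 from -0.56 to -0.26, so neither was near 1.5-fold without cluster 7. Lyve1 went the other way, to 1.0 (0.80 to 1.22), with 165, 332 and 238 CPM, and was then lower in TAC+ART than in TAC by -0.48 on the log2 scale (-0.60 to -0.36). Mertk stayed at 0.74. Outside cluster 7, 2 of the 10 were higher in TAC than in Sham by 1.5-fold (10.9% of 7810 genes) and 2 were lower (9.18%), and 2 were higher in TAC+ART than in TAC (5.77% of 9116 genes) and 0 lower (5.48%). Between TAC+ART and Sham 1 was higher there, Mertk (6.96% of 7612 genes), and 0 were lower (6.95%).

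**Figure D4:**
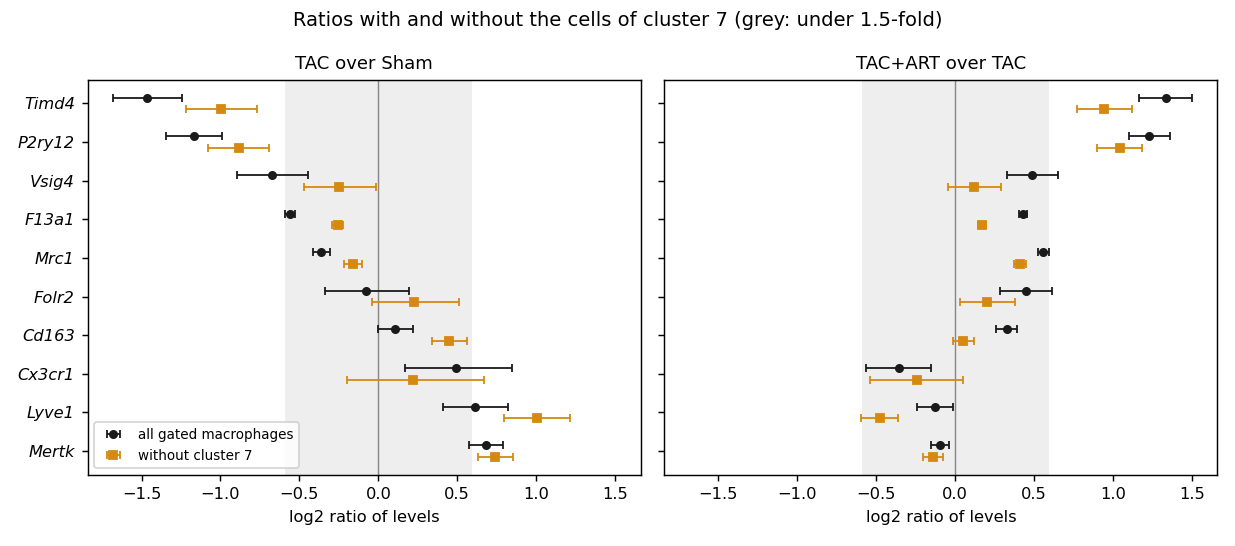
Log2 ratios of TAC over Sham and of TAC+ART over TAC for all gated macrophages (circles) and without the cells of cluster 7 (squares), with 95% intervals; the grey band holds ratios under 1.5-fold. Timd4 and P2ry12 stay outside the band, Vsig4 moves from -0.68 to -0.25 and Lyve1 from 0.61 to 1.0 for TAC over Sham.

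Within cluster 7 itself, Mertk was at 258 CPM in Sham, 773 in TAC and 516 after TAC+ART. Its log2 ratio of TAC over Sham was 1.56 (1.05 to 2.18), from 28 Sham UMIs in 32 cells. P2ry12 was at 295, 75.7 and 162 there, a ratio of -1.98 (-2.51 to -1.37), and Timd4 at 64.4, 14.1 and 36.6, a ratio of -2.27 (-3.39 to -0.78) from 7 Sham UMIs. Timd4 and P2ry12 were thus low in TAC both inside and outside cluster 7, where outside it the libraries differ in cluster as given above. Cx3cr1 was at 249, 140 and 220 CPM in cluster 7, lowest in TAC, with log2 ratios of -0.85 for TAC over Sham (-1.39 to -0.20) and 0.65 for TAC+ART over TAC (0.34 to 0.94), the opposite of its order over all gated macrophages. F13a1 was at 1390, 2040 and 1931 there, with a ratio of 0.55 for TAC over Sham (0.32 to 0.80), also opposite to its order over all of them. In cluster 5, which Sham and TAC+ART share, Timd4 was at 209 and 198 CPM, P2ry12 at 294 and 300, Lyve1 at 180 and 242, and Mertk at 661 and 924.

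Leaving out cluster 20, also chosen after seeing the data, brought Lyve1 and Mertk in TAC over Sham to 0.51 (0.30 to 0.74) and 0.56 (0.45 to 0.68), just under 1.5-fold, while Timd4 and P2ry12 were at -1.51 and -1.34. F13a1 was then at -0.70, past 1.5-fold. Lyve1, Mertk and F13a1 thus lie near the limit.

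Ccr2, a chemokine receptor by which monocytes leave the marrow, was seen in 8.67% of the gated macrophages in Sham, 12.5% in TAC and 12.4% after TAC+ART. Ccr2 is on the monocyte list, and the gate left out 8, 29 and 17 cells on the monocyte and dendritic lists. The Ccr2 values are therefore limited by the gate itself. Cells with a Ccr2 UMI had less Timd4 than cells without one: 47.1 against 201 CPM in Sham, 20.6 against 75.3 in TAC and 74.9 against 187 in TAC+ART. They had more Cx3cr1, 160 against 51.3, 192 against 68.9 and 206 against 45.3. P2ry12 differed less with Ccr2, at 264 against 265 in Sham, 102 against 120 in TAC and 192 against 288 in TAC+ART. Among cells without a Ccr2 UMI, Timd4 and P2ry12 kept the order of libraries seen in all macrophages. A cell without a Ccr2 UMI can still make Ccr2 RNA, since capture is sparse. In 1 random thinning to 1000 UMIs per cell, Ccr2 was seen in 4.67%, 5.94% and 6.60% of the macrophages.

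At least 1 of Timd4, Lyve1 and Folr2 was seen in 64.3% of the gated macrophages in Sham (58.6 to 69.8), 58.5% in TAC (55.8 to 61.1) and 66.3% after TAC+ART (63.2 to 69.2). Timd4 and P2ry12 together were seen in 24.0% (19.3 to 29.2), 6.81% (5.54 to 8.27) and 23.4% (20.7 to 26.1) of the cells, and Timd4 and Lyve1 together in 22.3%, 13.8% and 22.3%. The median macrophage held UMIs of 6 of the 10 genes in Sham, 5 in TAC and 6 after TAC+ART, and 10 TAC macrophages held none. In 1 random thinning to 1000 UMIs per cell the median was 3 in every library, and Timd4 and P2ry12 were seen together in 2.33%, 0.58% and 2.54% of the cells. Across cells, the highest Pearson correlation of any pair was that of Mrc1 and F13a1, 0.29 over 300 cells in Sham, 0.26 over 1380 in TAC and 0.32 over 985 in TAC+ART. Cells of a library share its depth and free RNA, and the other correlations were weaker.

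The genes differed in the share of their UMIs that lay outside the gated macrophages. The gated cells held 80.7% to 87.1% of all Timd4 UMIs of a library, 84.4% to 89.2% of Vsig4, 82.2% to 93.8% of F13a1, 79.6% to 91.2% of Cd163, 78.3% to 88.5% of Mrc1 and 72.9% to 87.2% of P2ry12. For Folr2 the range was 62.0% to 72.9%, for Mertk 37.5% to 72.4%, for Lyve1 35.9% to 48.1% and for Cx3cr1 30.8% to 55.3%. Ungated cells of the macrophage clusters are counted outside the gate here. Fibroblast-like cells held 65, 114 and 88 Cx3cr1 UMIs in Sham, TAC and TAC+ART, and endothelial-like cells 42, 149 and 116. The gated macrophages held 85, 570 and 299. Whether the Cx3cr1 and Folr2 UMIs of other classes exceed free RNA was not tested.

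Lyve1 was highest not in macrophages but in lymphatic endothelial-like cells, where it is a standard marker. It stood there at 453 CPM in Sham (388 to 527), 706 in TAC (663 to 752) and 492 after TAC+ART (445 to 543), in 79, 255 and 161 cells. These cells held 27.5%, 29.2% and 19.1% of the Lyve1 UMIs of their libraries. TAC was highest here too, with log2 ratios of 0.64 for TAC over Sham (0.40 to 0.88) and -0.52 for TAC+ART over TAC (-0.69 to -0.35). Mrc1, also known from lymphatic endothelium, was second highest there, at 179, 178 and 243 CPM, which is 7.17% to 9.18% of the macrophage level. At 1000 UMIs per cell, 14.4%, 15.8% and 20.05% of these cells held Mrc1, above the 1.68% to 5.69% of cardiomyocyte-like cells. Lyve1 was also higher in TAC than in Sham in cardiomyocyte-like cells, by 1.79 on the log2 scale (0.82 to 2.89). The ratio was 1.34 in fibroblast-like, 0.94 in pericyte-like and 0.72 in endothelial-like cells. In endocardial-like cells it was 0.43 (-0.04 to 0.94). The part of free RNA in the Lyve1 ratios was not tested.

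Mertk was present in endothelial-like cells at 140 CPM in Sham (128 to 152), 126 in TAC (118 to 133) and 147 after TAC+ART (139 to 156). It was also present in endocardial-like cells, at 126, 75.4 and 110, in pericyte-like cells, at 89.4, 62.0 and 90.8, and in fibroblast-like cells, at 55.7, 69.2 and 59.3. Cardiomyocyte-like cells had 8.06 to 20.2. The TAC library was lowest in the endothelial-, endocardial- and pericyte-like cells and highest in macrophages and fibroblast-like cells. In endocardial-like cells the log2 ratio of TAC over Sham was -0.74 (-1.09 to -0.39), against 0.68 in macrophages. This difference between classes was not tested.

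Cx3cr1 was higher in monocyte-like cells than in macrophages: 276 CPM (208 to 361) in the 51 cells of the TAC library, against 83.9. The Sham and TAC+ART libraries held 6 and 17 monocyte-like cells, too few to set a level. F13a1 was at 399 (316 to 498) in the same TAC cells, and Timd4 had 0 UMIs in them, with an upper bound of 18.9 CPM. In the remaining classes Timd4, Vsig4, P2ry12, Folr2 and Cd163 were at 20.2 CPM or less wherever a class held at least 50 cells of a library.

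**Figure D5:**
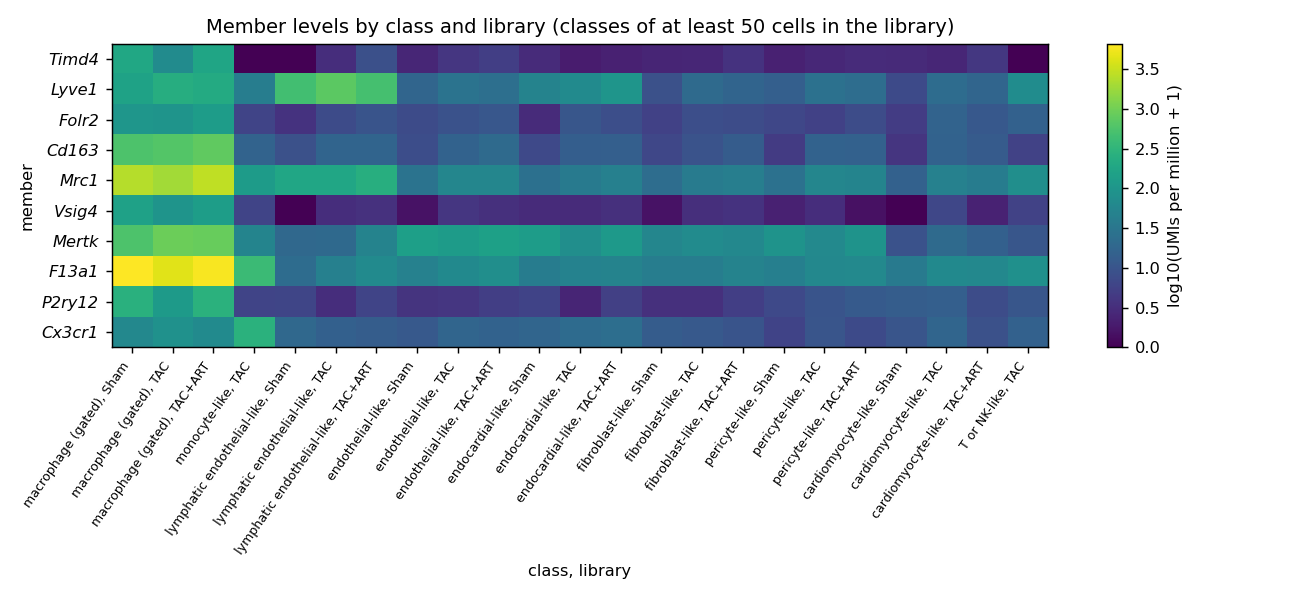
Level of each gene by class and library, as log10 of CPM plus 1 (colour), for classes with at least 50 cells in the library. Gated macrophages hold the highest level of 8 genes; Lyve1 is highest in lymphatic endothelial-like cells and Cx3cr1 in the monocyte-like cells of TAC.

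Summed over all cells of a library, where more macrophages and more RNA per macrophage cannot be told apart, Timd4 and P2ry12 were lower in TAC than in Sham although TAC held more macrophages. Timd4 was at 19.9 CPM in Sham (17.9 to 22.2), 15.5 in TAC (14.2 to 16.9) and 30.4 after TAC+ART (28.5 to 32.5), and P2ry12 at 30.8, 26.6 and 47.5. The other 8 were higher in TAC over the whole library, with log2 ratios from 0.46 for Vsig4 to 1.40 for Lyve1. In TAC+ART over TAC the whole-library ratio was 0.97 for Timd4 (0.82 to 1.13) and 0.84 for P2ry12 (0.72 to 0.96), and it was lowest for Lyve1 at -0.53 and Cx3cr1 at -0.50.

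The genes whose levels followed each member most closely were sought over 23 class-by-library sums, among 10657 genes, by the Pearson correlation of log2(CPM + 1). These sums share libraries, depth and free RNA. The closest were Gm20513 and Gm31243 for Timd4 (r of 0.96 and 0.96), Stab1 and Mindy2 for Lyve1 (0.91 and 0.90), Vsig4 and Cbr2 for Folr2 (0.94 and 0.93), and Siglec1 and Gm10441 for Cd163 (0.96 and 0.95). They were Gatm and Cltc for Mrc1 (0.93 and 0.93), Bank1 and Bco2 for F13a1 (0.99 and 0.98), Ms4a7 and Bank1 for Vsig4 (0.97 and 0.96), and Mob3c and Camk1 for Mertk (0.92 and 0.89). For Cx3cr1 they were Atp6v1e1 and Ebi3 (0.92 and 0.92), and for P2ry12 Gm10441 and Ifi202b (0.94 and 0.93). Folr2 and Vsig4 are the only 2 of the 10 where one is among the closest of the other. B-like cells, with 20, 47 and 44 cells, were too few to be among the sums. Bank1 and Gm31243 are among the 10 leading genes of the B-like cluster, so their r leaves out a class where they are high.

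Other genes used for resident macrophages also stood on both sides. Of 30 measured in the gated cells, 4 were higher in TAC than in Sham by 1.5-fold, a share close to the 11.7% of all genes, and 9 were lower, against 10.1% of all genes, with a median log2 ratio of -0.29. Between TAC+ART and TAC 10 were higher (5.21% of all genes) and 1 was lower (5.12%), with a median of 0.21. Against Sham, 6 of 29 were higher in TAC+ART (7.03% of all genes) and 0 lower (6.79%), with a median of -0.09. Clec10a, a lectin for galactose-type sugars, was at 60.0 CPM in Sham, 19.9 in TAC and 45.5 after TAC+ART, log2 ratios of -1.60 and 1.19. The chemokine Ccl24 was at 40.5, 15.5 and 28.2. On the other side stood Ccl8, another chemokine, with a ratio of 1.78 for TAC over Sham from 10 Sham UMIs, and Tgfbr1, a receptor for TGF-beta, with 1.02. Fcrls was lower in TAC+ART than in TAC, with a log2 ratio of -0.62.

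Of 20 measured genes of recruited macrophages and monocytes, 13 were higher in TAC than in Sham (11.7% of all genes) and 0 lower (10.1%), with a median log2 ratio of 1.13. Between TAC+ART and TAC 1 was higher (5.21%) and 6 were lower (5.12%), with a median of -0.26. Against Sham, 10 of 16 were higher in TAC+ART (7.03%) and 0 lower (6.79%), with a median of 0.83. Thbs1, which encodes thrombospondin-1, was at 1.40 CPM in Sham (2 UMIs) and 18.0 in TAC (122 UMIs). Cxcr4, a chemokine receptor, was at 2.09 (3 UMIs) and 22.8 (155 UMIs), then 7.22 after TAC+ART. For TAC over Sham, Thbs1 and Cxcr4 pass the filter only through their TAC UMIs. Il1b, the cytokine interleukin-1 beta, was at 44.0 in TAC and 9.41 after TAC+ART, a log2 ratio of -2.21 (-2.72 to -1.76). Ccr2 itself had a log2 ratio of 0.13 for TAC over Sham (-0.17 to 0.45) and 0.40 for TAC+ART over TAC. Of 9 antigen presentation genes, 3 were higher in TAC than in Sham (11.7% of all genes), 2 in TAC+ART than in TAC (5.21%) and 4 in TAC+ART than in Sham (7.03%). In each of these comparisons 0 were lower, against 10.1%, 5.12% and 6.79% of all genes. Cd74, at 0.68, and H2-Aa, at 0.61, had the highest ratios of TAC over Sham. The 12 genes of the gate differed too: 4 were higher in TAC than in Sham (11.7% of all genes) and 0 were lower (10.1%). C1qb, at 1.18, and C1qa, at 0.98, had the highest ratios. The gated cells were chosen on these 12 genes, so this count is not independent of the gate.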

How the data were processed

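RNA was measured with the 10x Genomics platform in 3 libraries of mouse ventricle, each from 3 pooled hearts. The authors deposited, for each library, a matrix of whole-number UMI counts per gene and barcode; Cell Ranger, Seurat and mm10 are named in the submitters' processing notes, and their versions, the kit's chemistry and the use of intron reads are details not given here by any source. Counts are as deposited, with no normalization. The library titled ART was taken as TAC with artesunate, following the series' design text.

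Barcodes with fewer than 500 UMIs or 300 genes, or with more than 10% of UMIs from mitochondrial genes, were left out, and likely doublets were removed with a score from simulated doublets (the top 0.8% per 1000 barcodes, which took 112, 440 and 376 barcodes). Clusters were made with Leiden (leidenalg 0.10.2, resolution 1, seed 1) on 3000 variable genes, 30 principal components and 20 neighbours, leaving the 10 genes out, in Python 3.11.15 with scipy 1.17.1 and scikit-learn 1.9.0. A class was named "-like" from marker lists. A macrophage had UMIs of at least 4 of the 12 markers and at least 15 marker UMIs per 10000, lay in no cluster named for another class, and had no more monocyte and dendritic marker UMIs than macrophage ones; these limits were chosen with the data in view.

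Levels are the summed UMIs of a gene in a class of 1 library, per 1000000 UMIs of that class (CPM). Log2 ratios add 0.5 counts. Intervals are exact 95% Poisson, Clopper-Pearson or conditional binomial intervals; PCR duplicates are collapsed in UMIs, and the intervals cover counting error only. Ratios are counted past 1.5-fold among genes with at least 100 UMIs in both libraries together. The libraries differ in macrophage UMIs, so a gene with few UMIs passes more easily when it is high in the larger library. Thinned shares are the exact hypergeometric expectation at 1000 UMIs per cell. The interval script was checked on simulated counts. The 10 genes and the lists were chosen with earlier results of these data known. For named genes the rule takes every member, the 2 highest and 2 lowest ratios of each list per comparison, and the 2 genes most alike; of these the text prints a selection, and genes named outside the rule were chosen after their values were seen. The lists overlap, as Ccr2 does in the monocyte and recruited lists. The gate used the monocyte list to leave out cells, so it also bears on the levels of such shared genes in the gated cells. Some genes of the lists are not reported here by name. Alternatives changed the gate, doublet removal, depth, scaling, filter and fold. Positions are from GENCODE M21 and promoters from RefSeq.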

Additional observations from a re-analysis of the deposited data

Results flagged for a closer look

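Mertk differed in direction between classes. Its log2 ratio of TAC over Sham was -0.74 in endocardial-like cells and 0.68 in gated macrophages, each from 1 library per group, and the difference between the classes was not tested. Mertk in cardiomyocyte-like cells was at 8.06 CPM in Sham and 20.2 in TAC.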

How the results depend on the processing

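The 10 genes were recomputed under 11 other ways of choosing, thinning or scaling the macrophages. Timd4 and P2ry12 stayed past 1.5-fold in all 11 for TAC over Sham (-1.64 to -1.0 and -1.34 to -0.89) and for TAC+ART over TAC (0.94 to 1.47 and 1.04 to 1.32). Vsig4 stayed past it for TAC over Sham in 8 of 11 (-0.75 to -0.25), Lyve1 in 8 of 11 (0.51 to 1.0) and Mertk in 10 of 11 (0.56 to 0.90); F13a1, under it as reported, passed it in 5 of 11 (-0.70 to -0.26). The sign of Folr2 for TAC over Sham held in 8 of 11 and that of Cd163 in 10 of 11. Mertk for TAC+ART over Sham, just under 1.5-fold as reported, passed it in 8 of 11 (0.48 to 0.72). Calls on Vsig4 and F13a1 thus move the count lower in TAC than in Sham, 3 as reported. Mrc1 for TAC+ART over TAC, just under 1.5-fold as reported, passed it in 2 of 11 (0.41 to 0.63). This moves the count higher in TAC+ART than in TAC, 2 as reported. The count higher in TAC than in Sham, 2 as reported, was 1 with the stricter gate, 1 with no doublet removal, 0 without cluster 20 and 0 at 2-fold. The count lower in TAC+ART than in TAC, 0 as reported, was 1 with cells thinned to 1000 UMIs. The count higher in TAC+ART than in Sham, 0 as reported, was 3 with thinning (of 9 measured), 2 with clusters in place of the gate, and 1 each with the looser gate, with monocyte and dendritic cells kept in, with cells of at most 8000 UMIs, without cluster 7, with size factors by the median of ratios, and with each cell weighted equally. The share of all genes past the limit was not computed for these settings, except without cluster 7. These counts therefore show only how the calls on the 10 genes move, and cannot be set against all genes. The cause was not tested. Sham has the fewest macrophages and sets the precision: Cx3cr1 had 85 UMIs there and Folr2 142. No paired analysis was possible because each group is 1 library, and for the same reason no replicate could be left out.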

Other observations

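Genes for factors that feed or bind macrophages were looked at in the other classes, and the genes and classes named here were chosen after their values were seen. Csf1, the growth factor of macrophages, was at 75.9 CPM in Sham, 267 in TAC and 86.2 after TAC+ART in endothelial-like cells, log2 ratios of 1.81 for TAC over Sham (1.64 to 1.99) and -1.63 for TAC+ART over TAC (-1.76 to -1.51). In endocardial-like cells Csf1 was at 87.2, 263 and 67.4. Il34, the second ligand of the same receptor, was highest in pericyte-like cells, at 458, 742 and 500 CPM. The receptor gene Csf1r, one of the gate's markers, was at 457, 487 and 553 in the macrophages.

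Cx3cl1, the ligand of Cx3cr1, was at 7.67 CPM in Sham, 25.4 in TAC and 9.12 after TAC+ART in endothelial-like cells, a log2 ratio of 1.71 for TAC over Sham (1.17 to 2.33) from 30 Sham UMIs. For TAC+ART over Sham the ratio there was 0.24 (-0.38 to 0.92). In fibroblast-like cells Cx3cl1 had a ratio of 2.26 for TAC over Sham (1.64 to 3.01), from 21 Sham UMIs. TAC+ART stayed above Sham in those cells, at 1.53 (0.88 to 2.31). C3, from which the ligands of CRIg are cut, was highest in fibroblast-like cells, at 170, 525 and 297 CPM, with log2 ratios of 1.63 (1.53 to 1.73) and -0.82 (-0.89 to -0.76). These are libraries without replicates, as above.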
